A study of Saccharomyces cerevisiae with 48 samples.

Results

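The outermost stretches of the yeast chromosomes held 180 of the 6465 genes counted in this SLAM-seq experiment. A gene belonged to this subtelomeric group if its counted interval ended within 15 kb of the first base of a chromosome, or started within 15 kb of the largest coordinate counted on it. The mitochondrial chromosome and 1 further gene were left out. Among the 180 were 173 protein-coding genes, 6 pseudogenes and 1 tRNA gene, and 76 had only a systematic name. The largest counted coordinate fell 0 to 3277 bases short of the R64 chromosome end, and measured from the full lengths 178 of the genes lay wholly inside 15 kb. The others, PHO89 and GTT1, reached 16637 and 16330 bases from the end.

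SLAM-seq measures newly made RNA: 4-thiouracil (4tU) is built into RNA during a short pulse, and once alkylated it gives T>C changes in sequencing reads. Budding yeast cultures were treated for 3 h with 1 mM 3-indoleacetic acid (IAA) or with its solvent DMSO and then labelled with 5 mM 4tU, for 6 min by the labels, whereas the methods of the study give a shorter time. All 8 strains were MATα derivatives of BY4705 that expressed the auxin receptor OsTIR1 from the GPD1 promoter and carried degron-tagged BDF1 and BDF2 (BDF1-3xV5-mAID::URA3 and BDF2-3xV5-mAID::KanMX), so that IAA triggers degradation of both proteins. RDY251, RDY249, RDY247, RDY237, RDY236, RDY235 and RDY234 held a further BDF1 copy at the TRP1 locus under the BDF1 promoter. In RDY251 that copy had 4 mutated residues in the ET (extra-terminal) domain and in RDY249 it had 2. The B and BID regions were deleted from it in RDY247. Both bromodomains were mutated in RDY237, the second one (BD2) in RDY236 and the first (BD1) in RDY235. The copy was unmodified in RDY234, and RDY73 had none. Each strain had 3 libraries under IAA and 3 under DMSO, lettered A to C, which makes 16 groups and 48 libraries. Per the library numbers, RDY73, RDY247 and RDY249 belonged to a later series than the other 5 strains, so strain and library series cannot be told apart where strains of both series are compared.

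Subtelomeres of budding yeast are gene-poor and are rich in families of near-identical genes, among them the PAU, COS and Y′ helicase families, together with genes for the use of sugars, metals and vitamins. The Sir2, Sir3 and Sir4 proteins spread inward from the telomere repeats and from the silent mating loci and hold nearby genes at low levels. Bdf1 is a bromodomain protein of the BET family that binds acetylated histone H4, works with the general transcription factor TFIID, and has been described as a barrier to the spread of Sir proteins near telomeres.

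S. cerevisiae reads numbered 3301563 to 10699839 per library, and between 42821 and 1163027 of them had 2 or more T>C conversions (T>C reads). Fission yeast (S. pombe) cells, labelled in cultures of their own and added before RNA extraction as a spike-in, gave 336128 to 1242931 reads per library, and size factors from 4955 S. pombe genes ranged from 0.5665 to 2.414. A normalized T>C read is a T>C read divided by that factor, so levels are relative to the spike-in and not to the S. cerevisiae reads. The T>C reads that unlabelled RNA gives were not measured, because unlabelled libraries were not analysed here. Replicates of a group are separate samples by the labels, and p-values measure the spread between these samples. Counts per gene come from 3′ mRNA libraries, and an order of genes by read count describes the reads and not RNA levels. In such bulk samples, fewer cells of a kind and less RNA per cell cannot be told apart.

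Many subtelomeric genes are copies that a read may not tell apart, which is why the last 60 coding bases of some are shown (R64, 5′ to 3′, stop codon included). Reads of these libraries start near the 3′ end of the transcript. Within each group the first sequence is the one compared with, and capitals mark bases that differ from it. The seripauperin (PAU) genes are cell wall mannoprotein genes known for expression without oxygen. PAU13 (chrVIII:11923-11982, minus strand) is set beside PAU14 (chrIX:8793-8852, minus strand) and PAU1 (chrX:8776-8835, minus strand), and PAU3 (chrIII:308116-308175, plus strand) beside PAU15 (chrIX:434244-434303, plus strand) and PAU22 (chrXVI:7933-7992, minus strand).
PAU13: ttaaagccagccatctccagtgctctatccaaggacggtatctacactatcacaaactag
PAU14: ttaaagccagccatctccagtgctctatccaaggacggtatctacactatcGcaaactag
PAU1: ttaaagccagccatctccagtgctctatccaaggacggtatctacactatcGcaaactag
PAU3: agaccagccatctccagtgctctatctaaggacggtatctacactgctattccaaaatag
PAU15: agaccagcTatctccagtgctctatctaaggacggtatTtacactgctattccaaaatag
PAU22: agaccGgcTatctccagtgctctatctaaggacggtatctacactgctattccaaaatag
PAU14 and PAU1 each differed from PAU13 at 1 of these 60 bases. Over all 48 libraries PAU13 had 2769 reads, whereas PAU14 had 0 and PAU1 had 2. PAU3 had 1996 reads, against 18 for PAU15 and 1 for PAU22, each of which differed from it at 2 bases. PAU21, which ended in the same bases as PAU22, had 0. By the measure of uniqueness given below, 0% of windows were unique in PAU14, PAU1, PAU21 and PAU22. The share was 83.5% in PAU13, 95.5% in PAU3 and 82.8% in PAU15. Whether the low counts come from little RNA or from reads that could not be placed was not tested.

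The COS genes encode membrane proteins that promote sorting of cargo into the endosome, and FEX1 and FEX2 encode fluoride exporters. COS6 (chrVII:1081584-1081643, minus strand) is set beside COS1 (chrXIV:9416-9475, plus strand) and COS8 (chrVIII:7487-7546, plus strand), FEX2 (chrXVI:13228-13287, minus strand) beside FEX1 (chrXV:1077852-1077911, plus strand), and the mating-type gene MATALPHA1 (chrIII:200910-200969, plus strand), which is no subtelomeric gene, beside its silenced copy HMLALPHA1 (chrIII:13750-13809, plus strand).
COS6: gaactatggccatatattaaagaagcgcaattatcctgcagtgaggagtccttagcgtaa
COS1: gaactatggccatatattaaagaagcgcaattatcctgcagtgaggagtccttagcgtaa
COS8: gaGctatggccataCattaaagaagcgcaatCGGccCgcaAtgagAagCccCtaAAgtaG
FEX2: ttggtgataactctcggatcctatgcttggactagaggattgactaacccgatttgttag
FEX1: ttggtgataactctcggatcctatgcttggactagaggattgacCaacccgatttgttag
MATALPHA1: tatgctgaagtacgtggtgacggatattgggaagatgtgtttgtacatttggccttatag
HMLALPHA1: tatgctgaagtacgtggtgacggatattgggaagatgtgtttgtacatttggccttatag
COS1 ended in the same 60 bases as COS6, while COS8 differed at 13 of them. FEX1 and FEX2 differed at 1 base. HMLALPHA1 and MATALPHA1 could not be told apart by these bases. The acid phosphatase genes PHO12 and PHO11 also shared their last 60 coding bases, and so did SNO2 and SNO3, which belong to families of vitamin B6 synthesis.

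Uniqueness was judged as the share of 100-base windows in the last 500 bases of each counted interval that occur once in the R64 genome on either strand. For 61 of the 180 genes every window was unique, for 81 some were, and for 38 none was. The median number of reads over all 48 libraries fell in the same order, at 533, 53 and 5. Whether the low counts of the last class come from little RNA or from reads that could not be placed was not tested. Multimapped reads made up 0.597% of the reads of the 180 genes and 0.444% of those of all genes. They exceeded 1% in 37 subtelomeric genes, and 5 of these were deep enough to test (PAU3, RDS1, YHR214C-C, FEX1 and FEX2).

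Depth set a sharp limit near the ends. Subtelomeric genes were 2.78% of the counted genes but held 0.233% of all reads and 0.854% of all T>C reads. The median subtelomeric gene had 69 reads and 11 T>C reads in all 48 libraries together, against 8310 reads and 1700 T>C reads for the median of all genes. No read at all was found for 9 of the 180 genes and no T>C read for 41. With a required mean of 10 T>C reads per library, 24 subtelomeric genes (13.3%) could be tested for new RNA, against 5118 genes (79.2%) overall. On total reads 56 (31.1%) could be tested, against 5907 (91.4%) overall. For the other 208 genes wholly within 30 kb of an end, 104 could be tested on T>C reads and the median was 2467 reads.

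**Figure D1:**
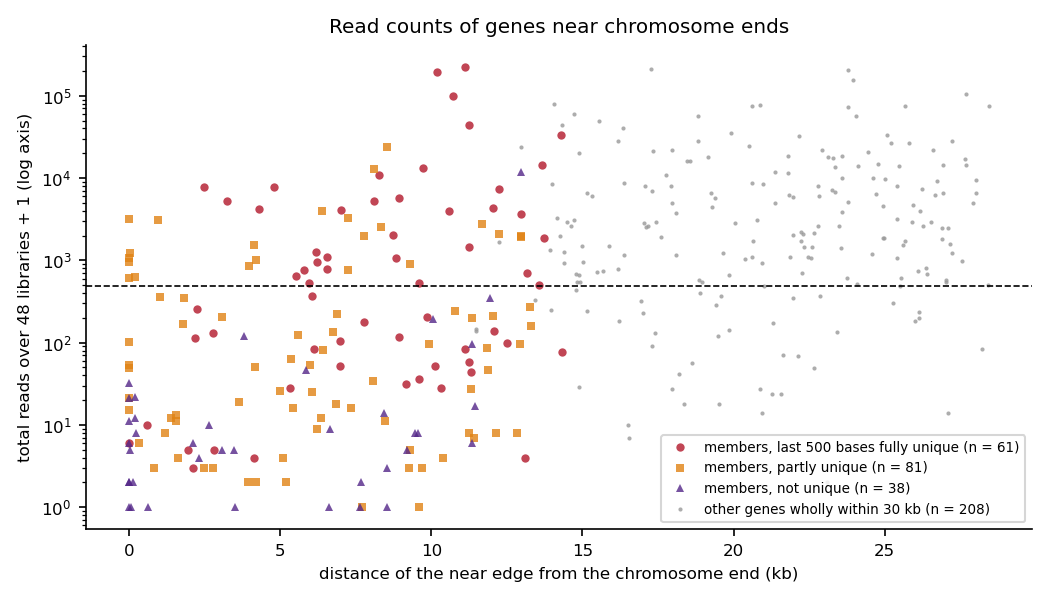
Total reads plus 1 in all 48 libraries together (log axis) against the distance in kb from the chromosome end to the nearer edge of the counted interval, with 1 point per gene. Colours mark subtelomeric genes whose last 500 bases were unique throughout (61), in part (81) or nowhere (38) and the 208 other genes within 30 kb, and the dashed line is the minimum for a test on total reads. Most subtelomeric points lie under the line, and all but 1 of those with no unique window do.

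Counts were higher further from the end. By the nearer edge of the interval, 66 genes lay within 5 kb of an end, 67 between 5 and 10 kb and 47 between 10 and 15 kb. Their median reads were 11.5, 80 and 196, and 5, 8 and 11 of them could be tested on T>C reads. Of the 32 chromosome ends, 16 had a testable gene and 4 had more than 1: the right end of chromosome III with 4, the left end of XIII and the right end of XVI with 3 each, and the right end of VIII with 2.

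The T>C reads were concentrated in a few genes. YML131W (XIII, 10198 to 11545, plus strand), ADH6 (XIII, 910811 to 912143, minus strand) and YCR102C (III, 304111 to 305467, minus strand) together held 75.5% of all T>C reads of the 180 genes, and the leading 10 held 90.2%. ADH6 encodes an NADPH-dependent alcohol dehydrogenase, and YML131W and YCR102C encode putative oxidoreductases of the same broad dehydrogenase superfamily. The remaining 7 of the leading 10 were ERO1, COX14, MIX23, RDS1, AIF1, ARR2 and YKL222C. T>C reads as a share of all reads are given as description: the median share over the 48 libraries was 26.3% for the 24 tested genes, with a range of 5.56% to 48.8%, and 20.3% for all tested genes.

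Bases upstream of these leading genes were searched on both strands for forms of the site known for Yap1, an AP-1 type activator of stress genes: the palindrome TTACGTAA, the motif TTACTAA and a related motif, TGACTAA. In the 300 bases before the counted interval at least 1 of them occurred in 6 of the 24 tested subtelomeric genes (25%) and in 12.5% of all 5103 tested nuclear genes. Without regard to depth the shares were 6.11% of the 180 and 11.7% of all 6419 nuclear genes. The 6 tested subtelomeric genes were YML131W, ADH6, YCR102C, RDS1, ERO1 and AIF1. A stretch of R64 around the match is shown for the 3 leading genes, 191 bases before the interval for YML131W (chrXIII:9987-10034, plus strand), 268 for ADH6 (chrXIII:912385-912431, minus strand) and 191 for YCR102C (chrIII:305632-305678, minus strand), with the match in capitals.
YML131W: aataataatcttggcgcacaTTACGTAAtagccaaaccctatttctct
ADH6: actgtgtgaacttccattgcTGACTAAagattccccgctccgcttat
YCR102C: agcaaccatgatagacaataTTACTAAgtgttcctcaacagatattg
TTACGTAA was in 0.701% of all windows of this length, TGACTAA in 3.65% and TTACTAA in 7.71%. A match of letters is a description and no evidence of binding.

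The first comparison asked how new RNA of these genes changed when Bdf1 and Bdf2 were degraded without a further copy. In RDY73, all 24 tested subtelomeric genes (100%) were lower under IAA, and so were 99.9% of all tested genes. Called genes are those with 2-fold or larger differences and Benjamini-Hochberg adjusted p-values below 0.05 over all tested genes in the quasi-likelihood test of edgeR. The median log2 change was -5.23 for the 24 genes, -5.40 for the 104 testable genes that lie wholly within 30 kb of an end but outside the group and -5.57 for all tested genes. The 3 IAA libraries lay below all 3 DMSO libraries for each of the 24, a count that was not made for all tested genes. Over the 3 IAA libraries the median tested gene of this group had 4.5 T>C reads, and YKL222C, FEX2 and SGE1 had none. Their bounds given below lie past the median, so the median stays at -5.23 with them set to the bound. These directions rest on the S. pombe scaling: with TMM scaling, which takes most S. cerevisiae genes as unchanged, 1 of the 24 genes was called lower and 5 higher in RDY73, and YML131W, ADH6, YCR102C, ERO1, RDS1, AIF1 and ARR2 had positive log2 changes.

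With unmodified BDF1 in RDY234, 0 of 24 genes (0%) were called lower, against 0% of all tested genes, and 0 were called with DESeq2 or had an unadjusted p under 0.05. The median log2 change was -0.03 for these genes and -0.04 for all. In the BD1 mutant RDY235 the count was also 0 (all tested genes 0%), with 3 genes at an unadjusted p under 0.05 and 0 by DESeq2. The BD2 mutant RDY236 had 5 genes (20.8%) called lower, against 5.2% of all tested genes, while the medians were -0.56 and -0.58. Those 5 were YKL222C, IRC7, PHO12, COS6 and FEX1. Without library A of RDY236 under IAA the share was 8.33%, without library B of RDY236 under IAA or under DMSO 12.5%.

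More genes were called in the other variants. In the double bromodomain mutant RDY237, 15 genes (62.5%) were lower, against 90.4% of all tested genes, with medians of -1.26 and -1.61. Deletion of the B and BID regions in RDY247 gave 12 genes (50%) lower, against 76.5% of all, with medians of -1.10 and -1.30. The strain with 2 mutated ET residues, RDY249, had 21 (87.5%) lower, against 94.5% of all, with medians of -1.64 and -1.81. With 4 mutated ET residues in RDY251, 23 (95.8%) were lower, against 99.1% of all, with medians of -3.08 and -3.48. MAL31 was the gene not called in RDY251. No subtelomeric gene was called higher on T>C reads in any of the 8 strains, and of all tested genes 0% to 0.117% were.

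**Figure D2:**
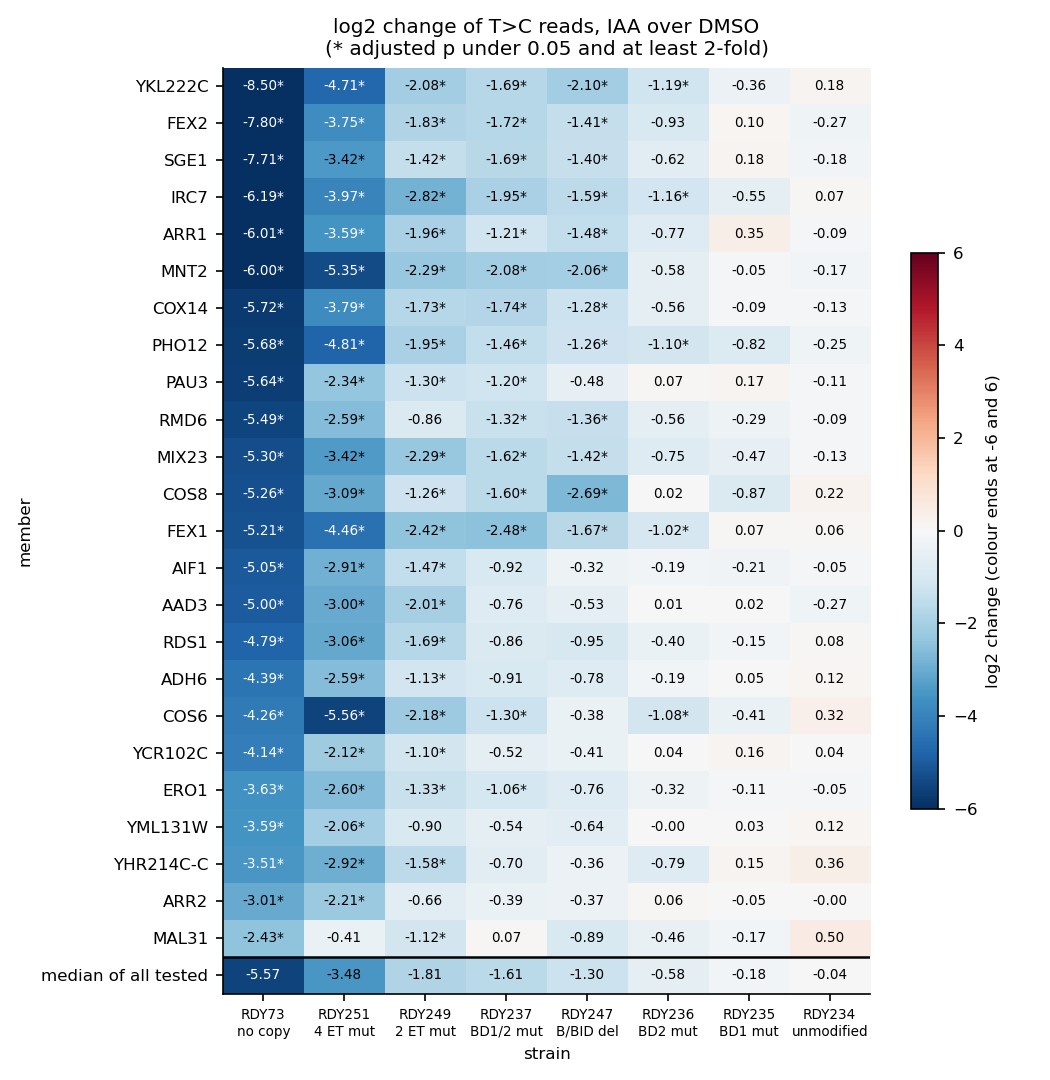
Heat map of the fitted log2 change of T>C reads, IAA over DMSO, for the 24 tested subtelomeric genes (down the page) in the 8 strains (across), with the median of all tested genes as a last line. RDY73 and RDY251 show the deepest falls (medians -5.23 and -3.08), RDY234 and RDY235 stay near 0, and fitted values of YKL222C, FEX2 and SGE1 in RDY73 rest on no read under IAA.

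The 3 leading oxidoreductase genes carried most of the reads, and their fitted falls in RDY73 were smaller than the median of all tested genes. YML131W had 155, 138 and 116 normalized T>C reads in the IAA libraries of RDY73, against 1574, 1510.2 and 1853 in its DMSO libraries. It fell 12.1-fold (log2 -3.59, SE 0.22, adjusted p = 2.01e-30). ADH6 had 91.3, 87.1 and 56.8 under IAA and 1635, 1503 and 1786 under DMSO, a 21-fold fall (log2 -4.39, SE 0.22, adjusted p = 1.35e-36). Every DMSO library lay above every IAA library for both genes. For YCR102C the values were 33.3, 50.6 and 23.2 under IAA and 524, 746 and 582 under DMSO, a 17.6-fold fall (log2 -4.14, SE 0.23, adjusted p = 9.1e-34).

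In RDY251 the same 3 genes also fell. YML131W had 313, 348 and 444 under IAA and 1459, 1394 and 1759 under DMSO (log2 -2.06, SE 0.20, adjusted p = 9.08e-17), the smallest called fall of any tested subtelomeric gene in that strain. ADH6 had 159, 174 and 227 under IAA and 1079, 1079 and 1217 under DMSO (log2 -2.59), and YCR102C 154, 166 and 146 and 712.1, 684 and 631 (log2 -2.12). In RDY249 ADH6 and YCR102C were called lower (log2 -1.13 and -1.10) and YML131W was not (log2 -0.90), and in RDY237 and RDY247 none of the 3 passed the 2-fold rule. YML131W averaged 1638 ± 256 under IAA and 2383 ± 207 under DMSO in RDY237 (SD, n = 3 each), and its log2 changes were -0.54 in RDY237 and -0.64 in RDY247. With unmodified BDF1 the groups overlapped: YML131W had 1602, 1573 and 1554 under IAA and 1617, 1231 and 1506 under DMSO in RDY234.

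**Figure D3:**
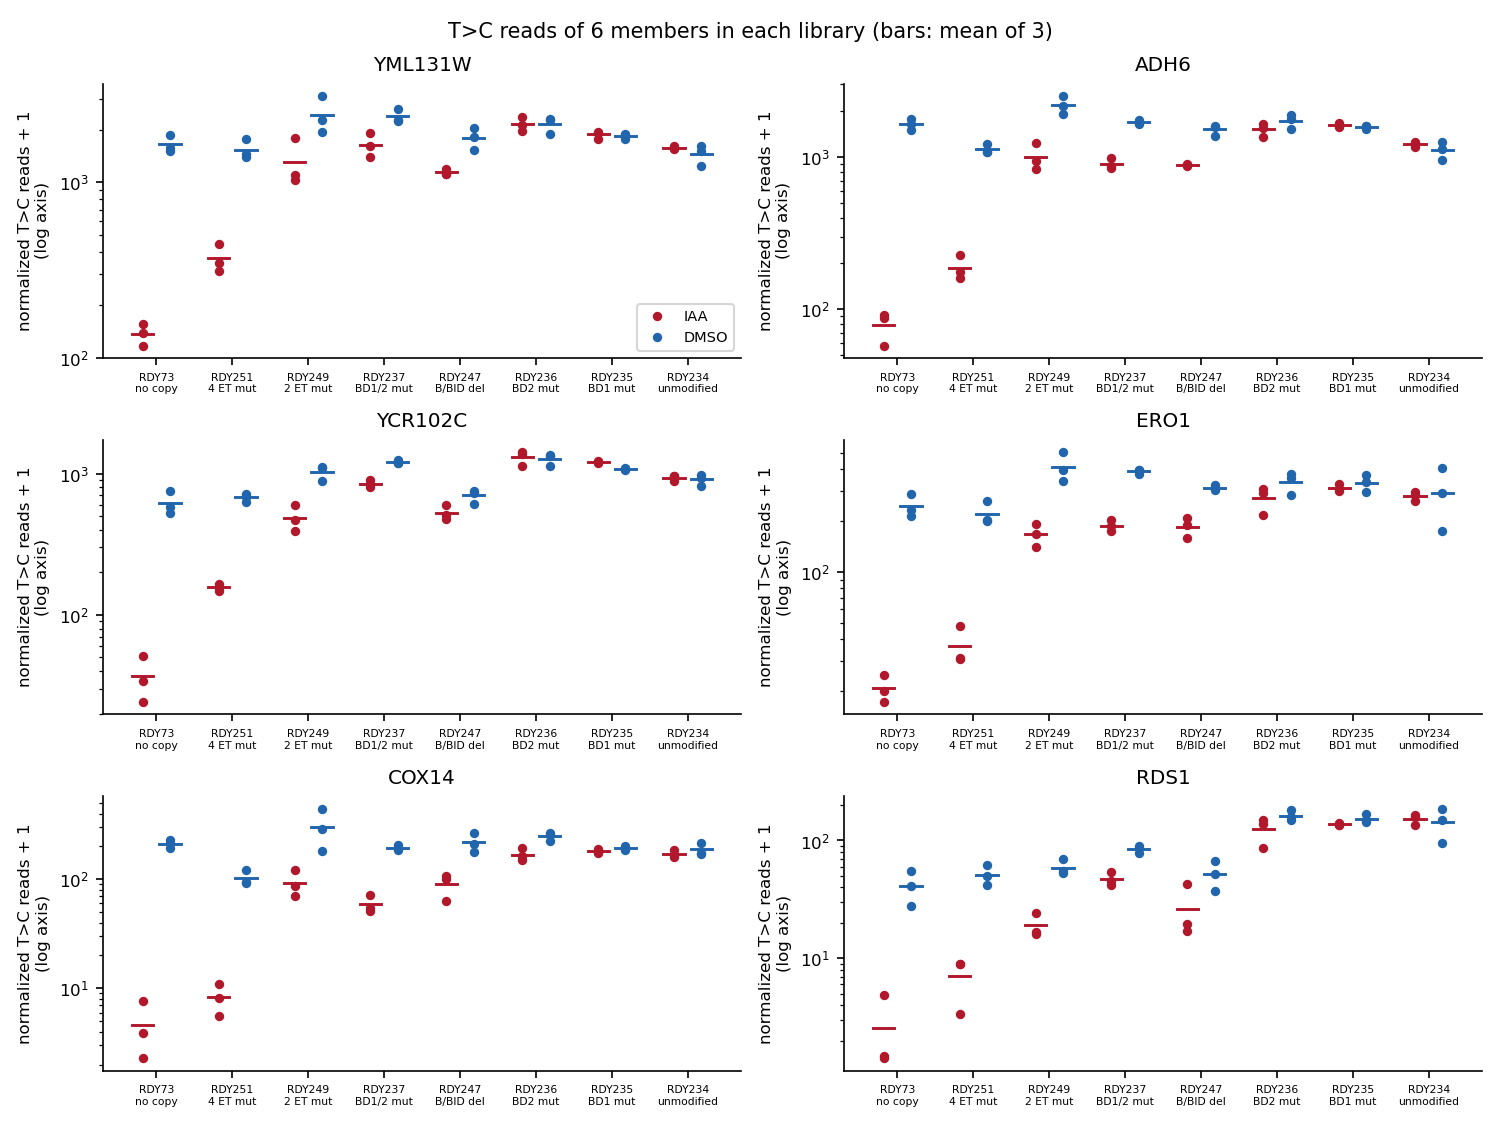
Normalized T>C reads (log axis) of YML131W, ADH6, YCR102C, ERO1, COX14 and RDS1 in every library, 1 panel per gene, with the IAA libraries of each strain left of its DMSO libraries. In RDY73 and RDY251 all IAA points lie below all DMSO points in each panel, whereas in RDY234 the groups overlap.

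The other dehydrogenase and flavoprotein genes of the group had fewer reads. AIF1 (XIV, 777352 to 778738), a relative of the mammalian apoptosis-inducing factor, had 1.43, 1.92 and 2.07 under IAA and 59.3, 60.6 and 71.9 under DMSO in RDY73 (log2 -5.05, SE 0.35, adjusted p = 1.77e-26). Its fall passed the 2-fold rule in RDY249 and RDY251 but not in RDY237 or RDY247, where its log2 changes were -0.92 and -0.32. AAD3 (III, 313890 to 315231), a putative aryl-alcohol dehydrogenase gene, had 3 T>C reads in the 3 IAA libraries of RDY73 and 58 in its DMSO libraries. The normalized ratio was 39-fold, with an exact 95% counting interval of 12.7 to 195. In RDY251 it was called lower (log2 -3.0) although 1 DMSO library, at 3.82, overlapped the IAA libraries at 1.71, 4.00 and 0.

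Genes for protein folding and mitochondria also fell. ERO1 (XIII, 11233 to 13174), the thiol oxidase that drives disulfide formation in the endoplasmic reticulum, had 19.0, 23.7 and 16.2 under IAA and 229, 210.3 and 286 under DMSO in RDY73, a 12.4-fold fall (log2 -3.63, SE 0.24, adjusted p = 1.3e-27). COX14 (XIII, 14291 to 14753), an assembly factor of cytochrome c oxidase on the same chromosome end, had 2.85, 1.28 and 6.63 under IAA and 193, 213 and 227 under DMSO, a 52.7-fold fall (log2 -5.72, SE 0.31, adjusted p = 5.24e-34). ERO1, COX14 and YML131W are the 3 tested genes of the left end of XIII, and all their IAA libraries lay below all their DMSO libraries. MIX23 (II, 9711 to 10551), which encodes a protein of the mitochondrial intermembrane space, averaged 2.02 ± 1.76 under IAA and 76.3 ± 3.19 under DMSO (SD, n = 3 each; log2 -5.30, SE 0.37, adjusted p = 2.41e-26). In the variants COX14 had called log2 changes of -3.79 in RDY251, -1.74 in RDY237, -1.73 in RDY249 and -1.28 in RDY247. ERO1 was called in RDY237, RDY249 and RDY251, with log2 changes of -1.06, -1.33 and -2.60, and was not in RDY247, where its log2 change was -0.76.

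MNT2 (VII, 12231 to 14157), a mannosyltransferase gene of O-linked sugar chains, and IRC7 (VI, 264204 to 265476), a cysteine-sulfur lyase gene, were among the most affected. MNT2 had 3 T>C reads in the IAA libraries of RDY73 and 116 in its DMSO libraries, a normalized ratio of 78.2-fold, with an exact 95% counting interval of 26.1 to 385. In RDY251 the counts were 1 under IAA and 48 under DMSO, a ratio of 61.9-fold, with an exact 95% counting interval of 10.6 to 2495. Neither gene had an IAA library as high as a DMSO library in these 2 strains. IRC7 averaged 6.43 ± 4.96 under IAA and 47.7 ± 17.6 under DMSO in RDY249 (SD, n = 3 each; log2 -2.82, SE 0.44, adjusted p = 6.4e-09), the largest fall in that strain, and its log2 change in RDY236 was -1.16, SE 0.40, adjusted p = 0.0158. RMD6 (V, 13720 to 14665), required for sporulation, was called lower in RDY73, RDY237, RDY247 and RDY251 and had a log2 change of -0.86 (adjusted p = 0.0528) in RDY249.

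The transcription factor genes differed in depth. RDS1 (III, 310958 to 313706) encodes a zinc cluster factor linked to drug sensitivity, and YKL222C (XI, 3253 to 5620) encodes a putative factor of the same class. RDS1 had 0.476, 3.84 and 0.414 under IAA and 26.9, 53.6 and 39.8 under DMSO in RDY73 (log2 -4.79, SE 0.44, adjusted p = 4.45e-19), and 6 of its 8 IAA reads were in library B. YKL222C had no T>C read in the 3 IAA libraries, against 42.2, 33.4 and 50.9 under DMSO, which makes it at least 84.9-fold lower if 3 reads over the group are taken as the floor. It was called lower in 6 strains, and its log2 change was -1.19, SE 0.25, adjusted p = 0.000518 in RDY236 and -2.10, SE 0.32, adjusted p = 2.7e-08 in RDY247. In RDY236 it had 29.6, 35.5 and 39.3 under IAA and 77.6, 74.6 and 85.8 under DMSO, with no overlap. ARR1 (XVI, 937898 to 939032), the activator of the arsenic resistance genes, had 3 T>C reads under IAA and 118 under DMSO in RDY73, a ratio of 79.5-fold, with an exact 95% counting interval of 26.6 to 391.

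The transport and detoxification genes included large and small falls. FEX2 (XVI, 12978 to 14355) and SGE1 (XVI, 934034 to 935915), a multidrug exporter gene, had no T>C read in the IAA libraries of RDY73, against 77 and 72 in its DMSO libraries. With the same floor they were at least 51.9-fold and 48.5-fold lower. FEX1 (XV, 1076784 to 1078161), whose reads can be confused with those of FEX2, had 2 reads under IAA and 49 under DMSO. Both FEX genes were called lower in RDY237, RDY247, RDY249 and RDY251, and FEX1 also in RDY236 (log2 -1.02, SE 0.38, adjusted p = 0.0222).

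ARR2 (XVI, 939029 to 939671), the arsenate reductase gene, shares bases with ARR1 on the same strand. It had 9.99, 0.640 and 1.66 under IAA and 45.8, 20.2 and 38.7 under DMSO in RDY73 (log2 -3.01, SE 0.40, adjusted p = 1.46e-11), where library A held most of the IAA reads. In the variants it was called only in RDY251 (log2 -2.21, SE 0.34, adjusted p = 2.19e-09), and its log2 change was -0.39 in RDY237, -0.37 in RDY247 and -0.66 in RDY249. MAL31 (II, 802381 to 804475), a maltose permease gene, had 2.85, 2.56 and 4.14 under IAA and 23.3, 17.2 and 13.3 under DMSO in RDY73 (log2 -2.43, SE 0.44, adjusted p = 2.44e-07), the smallest change of the 24 in this strain. In RDY251 it had 6.86, 7.2 and 2.93 under IAA and 10.4, 5.52 and 6.69 under DMSO, and the groups overlapped (log2 -0.41, SE 0.48, adjusted p = 0.391).

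Members of the repeated families could be tested in a few cases only. COS6 (VII, 1081334 to 1082729) had 1.90, 1.28 and 1.66 under IAA and 23.3, 34.4 and 44.2 under DMSO in RDY73 (log2 -4.26, SE 0.46, adjusted p = 3.92e-15). In RDY251 it had 1 T>C read under IAA and 56 under DMSO, a ratio of 72.2-fold, with an exact 95% counting interval of 12.4 to 2902. Since COS1 ends in the same bases, reads of the 2 genes may be exchanged. COS8 (VIII, 6401 to 7796), which is set apart by the bases shown above, had 1 read under IAA and 32 under DMSO in RDY73 and had log2 changes of -1.60 in RDY237, -2.69, SE 0.62, adjusted p = 5.87e-05 in RDY247 and -1.26 in RDY249, all called, with overlapping libraries in RDY237. PAU3 (III, 307801 to 308425) had 1 read under IAA and 42 under DMSO in RDY73, a ratio of 84.9-fold, with an exact 95% counting interval of 14.4 to 3432, and averaged 2.22 ± 0.847 under IAA and 11.3 ± 1.94 under DMSO in RDY251 (SD, n = 3 each; log2 -2.34, SE 0.50, adjusted p = 9.9e-06). PHO12 (VIII, 552099 to 553752) had 5 reads under IAA and 144 under DMSO in RDY73, a ratio of 58.2-fold, with an exact 95% counting interval of 24.4 to 182. Its log2 change in RDY236 was -1.10, SE 0.27, adjusted p = 0.00226.

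The second comparison set each variant against unmodified BDF1 under IAA. Of the 24 genes, 0 were lower in RDY235 (0.0391% of all tested genes), with 0 called by DESeq2 and 6 at an unadjusted p under 0.05. A single gene was lower in RDY236 (4.17%, against 1.45% of all): YKL222C, with 29.6, 35.5 and 39.3 in RDY236 and 72.6, 84.9 and 61.7 in RDY234 (log2 -1.06, SE 0.26, adjusted p = 0.00713). That call was lost without library A of RDY236 or library B of RDY234. The double bromodomain mutant RDY237 had 17 genes lower (70.8%, against 83.7% of all), RDY247 12 (50%, against 64.6%), RDY249 14 (58.3%, against 65.8%) and RDY251 24 (100%, against 99.2%). The median log2 difference was -4.54 in RDY251 (all tested genes -4.39), -1.36 in RDY237 (-1.54), -1.11 in RDY249 (-1.27), -1.0 in RDY247 (-1.22), -0.25 in RDY236 (-0.21) and 0.18 in RDY235 (-0.04). The 6 comparisons share the RDY234 libraries.

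The largest differences of this kind were in RDS1, YKL222C, COS8, MNT2, COS6 and PHO12. RDS1 averaged 18.1 ± 4.61 in RDY249 and 25.3 ± 13.9 in RDY247 under IAA, against 151 ± 15.4 in RDY234 (SD, n = 3 each), with log2 differences of -3.09, SE 0.30, adjusted p = 2.14e-15 and -2.51, SE 0.28, adjusted p = 1.23e-12. Both strains also had lower values than RDY234 under DMSO, as given below, and belong to the other library series. COS8 averaged 2.79 ± 1.81 in RDY237 and 20.4 ± 11.3 in RDY234 under IAA (log2 -2.92, SE 0.52, adjusted p = 3.16e-07). In RDY251, MNT2, COS6 and PHO12 had 1, 1 and 2 T>C reads under IAA. YHR214C-C (VIII, 547660 to 549346), which shares bases with another gene and has no unique window, was lower in RDY249 (log2 -2.53, SE 0.52, adjusted p = 1.13e-05).

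**Figure D4:**
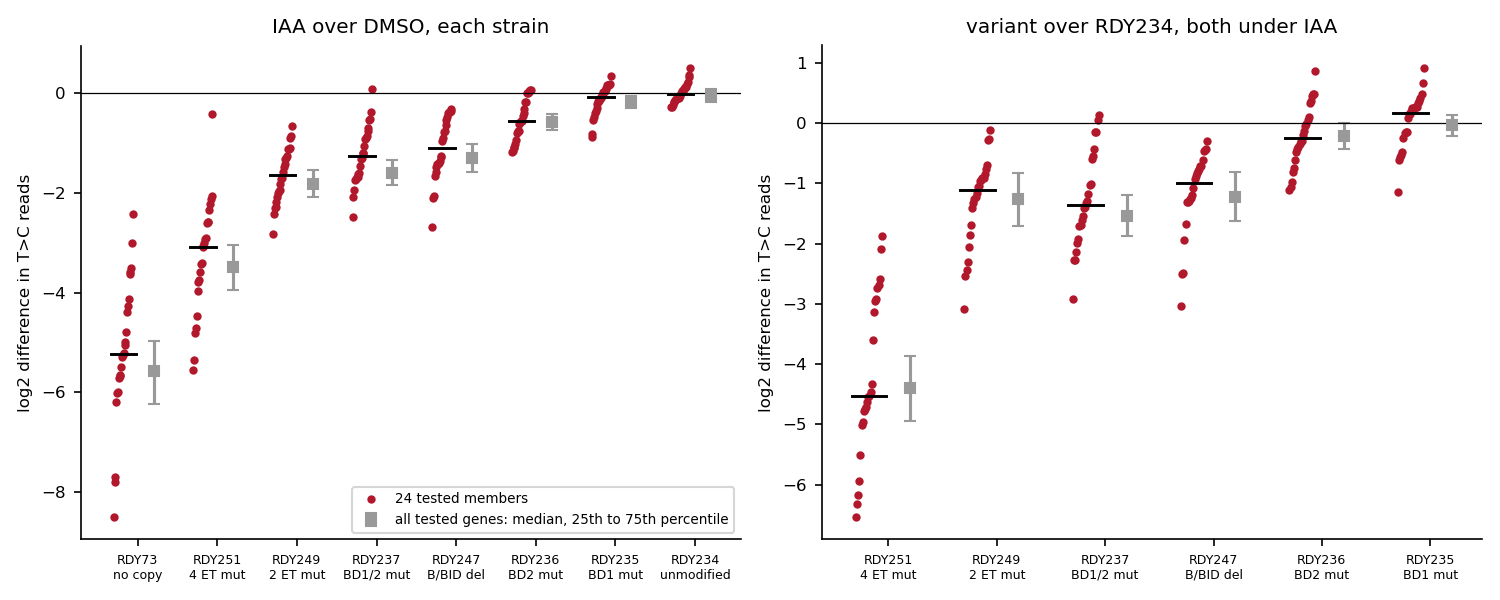
Log2 change of T>C reads for the tested subtelomeric genes (points, 24 per comparison) beside the median and quartiles of all tested genes, for IAA over DMSO in the 8 strains and for the 6 variants over RDY234 under IAA. The points centre on medians from -5.23 (RDY73) to -0.03 (RDY234) in the first panel and spread on both sides of the median of all genes in each comparison.

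An interaction term tested whether the response to IAA itself differed from the response in RDY234. It was more negative for 24 genes in RDY73 (99.9% of all tested genes), 23 in RDY251 (99%), 22 in RDY249 (92.8%), 15 in RDY237 (88.1%) and 12 in RDY247 (69.8%). In RDY235 it was so for 0 genes (0% of all tested genes), and 0 had an unadjusted p under 0.05. RDY236 also had 0 (0%), with 5 at an unadjusted p under 0.05, and DESeq2 called 0 in both. FEX1, IRC7 and MNT2 had the largest differences in RDY237, COS8, YKL222C and MNT2 in RDY247, and IRC7, COS6 and FEX1 in RDY249. FEX1 differed by -2.54 on the log2 scale in RDY237 (SE 0.64, adjusted p = 0.000224), and COS8 by -2.91 in RDY247 (SE 0.74, adjusted p = 0.000568).

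Under DMSO a small set of genes at the right ends of chromosomes III and XVI, with YHR214C-C counted at that of VIII, was higher in several strains than in RDY73. These strains, RDY234, RDY235, RDY236 and RDY237, are of the earlier library series, whereas RDY73 is of the later one. No gene of the set was called higher in RDY247 or RDY249, which share the series of RDY73. Nor was any called higher in RDY251, which is of the earlier series. Whether the rise goes with the strains or with the library series was not tested. RDS1 averaged 162 ± 15.8 normalized T>C reads in RDY236, 152 ± 12.3 in RDY235, 143 ± 45.4 in RDY234, 83.6 ± 5.30 in RDY237, 57.8 ± 8.86 in RDY249, 51.2 ± 15.3 in RDY247, 50.3 ± 10.3 in RDY251 and 40.1 ± 13.3 in RDY73 (SD, n = 3 each). All libraries of RDY236, RDY235, RDY234 and RDY237 lay above all 3 of RDY73. Against RDY73 the log2 difference was 2.02, SE 0.25, adjusted p = 3.71e-10 in RDY236, 1.84, SE 0.26, adjusted p = 1.25e-08 in RDY234 and 1.07, SE 0.26, adjusted p = 0.0011 in RDY237. Within the earlier library series RDS1 was lower in RDY251, at 48.5, 61.4 and 41.1, against 185, 95.1 and 149 in RDY234 (log2 -1.49, SE 0.24, adjusted p = 6.71e-07). In that comparison the median log2 difference of all tested genes was -0.94, and 42% of them were called lower.

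ARR2 and PAU3 were also higher than in RDY73. ARR2 had 133, 115 and 109 in RDY237, 115, 117 and 127 in RDY235 and 117, 107 and 109 in RDY236, against 45.8, 20.2 and 38.7 in RDY73. Its log2 difference from RDY73 was 1.77, SE 0.29, adjusted p = 5.15e-07 in RDY235 and 1.24, SE 0.30, adjusted p = 0.000676 in RDY234. PAU3 had 55.0, 36.6 and 31.6 in RDY237, against 12.6, 20.2 and 8.85 in RDY73 (log2 1.55, SE 0.34, adjusted p = 0.000175), without overlap. AAD3 was higher in RDY234 (log2 1.4, SE 0.37, adjusted p = 0.00208) and RDY235 (log2 1.31), and YHR214C-C in RDY236 (log2 1.46, SE 0.43, adjusted p = 0.00459) and RDY237 (log2 1.15). In AAD3 for RDY234 and in YHR214C-C for RDY236 the libraries overlapped those of RDY73. Since YHR214C-C has no unique window, its reads cannot be placed at the right end of VIII with certainty.

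In all, 3 of the 24 genes were higher in RDY234 than in RDY73 (6.96% of all tested genes), 5 in RDY235 (8.93%), 6 in RDY236 (12.7%), 4 in RDY237 (7.35%), 2 in RDY249 (8.17%), 0 in RDY251 (0.703%) and 0 in RDY247 (2.42%). The 2 in RDY249 were COS8 and MNT2, MNT2 being at 78.5 ± 14.3, against 39.0 ± 5.81 in RDY73. Of the 104 testable other genes within 30 kb, 10.6% were higher in RDY234, 13.5% in RDY235, 18.3% in RDY236 and 6.73% in RDY237. None of the 24 genes had an unadjusted p under 0.05 in RDY247, where DESeq2 also called 0. Lower than RDY73 were 1 gene in RDY237 (3.11% of all), MAL31 (log2 -1.21, SE 0.44, adjusted p = 0.0323), and 11 in RDY251 (40.8%), led by PHO12 (log2 -1.67, SE 0.30, adjusted p = 1.32e-06), SGE1 (log2 -1.59) and AIF1 (log2 -1.57). RDY251 also had 10 genes lower than RDY234 under DMSO (42% of all tested genes), a comparison within 1 library series, led by AIF1 (log2 -1.90, SE 0.25, adjusted p = 1.22e-08). Single libraries moved these counts: without library A of RDY73, 8.33% of the 24 genes were called in RDY234, 12.5% in RDY235, 8.33% in RDY237 and 4.17% in RDY249, and 8.33% were called in RDY234 without library B of RDY73. The share in RDY237 was 12.5% without its library A or B. In RDY249 it was 0% without its library A and 12.5% without library B of RDY73.

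**Figure D5:**
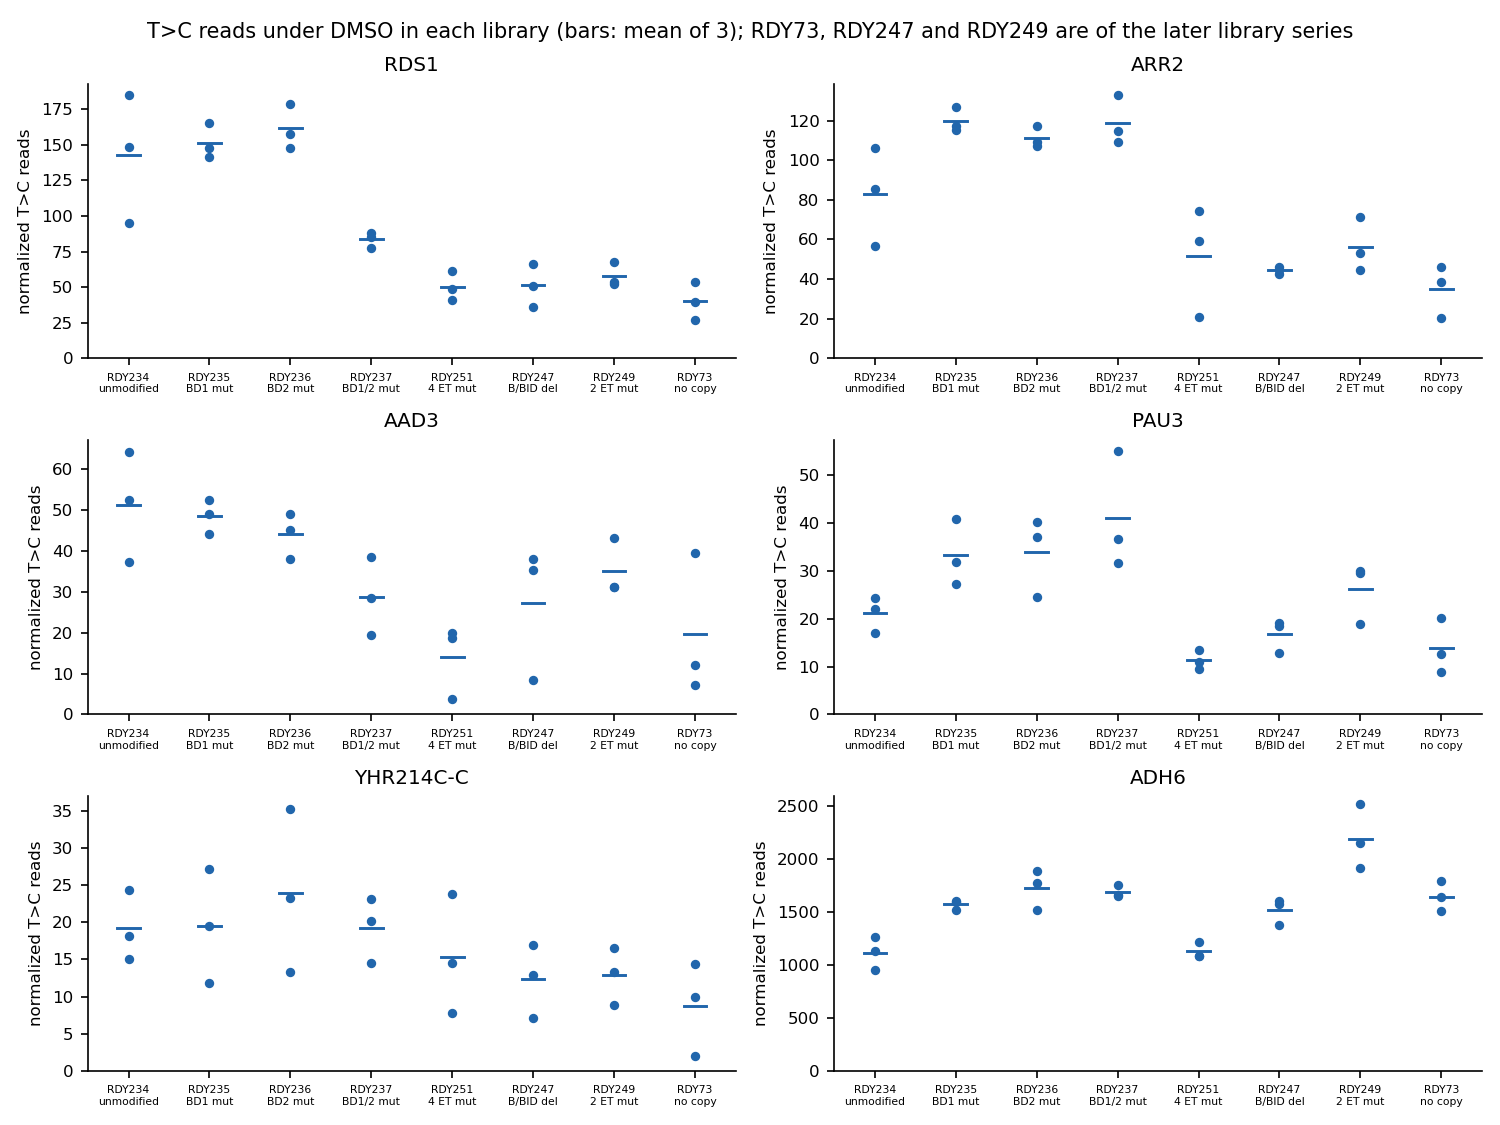
Normalized T>C reads under DMSO (linear axes from 0) of RDS1, ARR2, AAD3, PAU3, YHR214C-C and ADH6 in every library of the 8 strains, RDY73 last, with points for libraries and bars for means of 3. RDS1 is at least 77.7 in all libraries of RDY234, RDY235, RDY236 and RDY237 and at most 68.0 in all of the other strains, whereas ADH6 does not divide the strains in this way.

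Genes of the right end of III were high in the same library of RDY73, a pattern seen after the values were known and given as description. Under DMSO, library B of RDY73 had the highest value of the 3 for all 4 tested genes there: YCR102C at 746, against 524 and 582 in libraries A and C, PAU3 at 20.2, against 12.6 and 8.85, RDS1 at 53.6, against 26.9 and 39.8, and AAD3 at 39.4, against 7.18 and 12.2. ADH7 (III, 309070 to 310405), an alcohol dehydrogenase gene between PAU3 and RDS1, had 31.3 normalized total reads in library B and 4.49 and 15.5 in A and C. ADH6 on XIII did not follow: library B had 1503, the lowest of the 3. AAD3 was at 8.48 in library B of RDY247 under DMSO, where libraries A and C had 38.2 and 35.4, and RDS1 and YCR102C were also lowest there, whereas PAU3 was highest there, at 19.1, against 18.4 and 12.9. The T>C shares over all libraries at this end were 48.8% for PAU3, 47.8% for RDS1, 42.2% for AAD3 and 38.3% for YCR102C.

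Total reads, which also hold RNA made before depletion, gave smaller changes. In RDY73, 41 of 56 tested subtelomeric genes (73.2%) were lower, against 84.8% of all tested genes, and 2 were higher, against 2.52% of all. The median log2 change was -1.65 for these genes and -2.25 for all. In RDY251, 33 (58.9%) were lower, against 76.5% of all, and 1 was higher (1.85% of all), with medians of -1.25 and -1.55. RDY237 had 15 lower (26.8%, against 24.5% of all) and 1 higher (1.35% of all), RDY247 12 lower (21.4%, against 13.7%) and 2 higher (2.18% of all), and RDY249 15 lower (26.8%, against 20.1%). In RDY236 4 were lower (7.14%, against 0.83%), in RDY235 1 (1.79%, against 0.0169%) and in RDY234 0 (0.0169% of all), where 3 had an unadjusted p under 0.05 and DESeq2 called 0. Without library B of RDY237 under IAA or under DMSO its share was 16.1%. The single call in RDY235, PHO89, was lost without library B or C under IAA or library B under DMSO, and the share in RDY236 was 3.57% without library A under IAA and 10.7% without library B under IAA.

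ADH7 had no read in the IAA libraries of RDY73, against 4.49, 31.3 and 15.5 normalized total reads under DMSO, and was called lower in 6 strains, with log2 changes of -1.4 in RDY236, -2.27 in RDY247 and -2.10 in RDY251. YCR101C (III, 302232 to 303030) fell 13.4-fold in RDY73 (log2 -3.75, SE 0.51, adjusted p = 1.53e-09). PHO11, the near copy of PHO12 on chromosome I, had 2.29, 7.2 and 2.34 under IAA and 45.9, 31.7 and 34.4 under DMSO in RDY251 (log2 -3.31, SE 0.28, adjusted p = 3.02e-15). No IAA library of these 3 genes reached a DMSO library in the strains named.

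Both genes that rose on total reads in RDY73 lie on chromosome II, and PHO89 reaches past 15 kb when measured from the R64 chromosome end. PHO89 (796548 to 798522), a sodium-phosphate cotransporter gene, had 214, 192 and 147 under IAA and 75.4, 79.9 and 85.1 under DMSO in RDY73, a 2.30-fold rise (log2 1.2, SE 0.20, adjusted p = 1.54e-07). In RDY235 the same gene was lower (log2 -1.2, SE 0.26, adjusted p = 0.00744), and in RDY234 it had 27.3, 14.6 and 36.1 under IAA and 36.6, 49.1 and 65.2 under DMSO, which did not pass the test (log2 -0.90, SE 0.27, adjusted p = 0.361). The tRNA gene YNCB0001W (9583 to 9916), whose extended interval lies opposite MIX23, had 20.5, 21.1 and 31.5 under IAA and 7.18, 4.04 and 7.74 under DMSO in RDY73 (log2 1.94, SE 0.41, adjusted p = 2.36e-05) and was also called higher in RDY251 and, with overlapping libraries, in RDY247. FRE2, a ferric reductase gene, rose in RDY247 (log2 1.11, SE 0.34, adjusted p = 0.00427), and MAN2, a mannitol dehydrogenase gene, rose in RDY237 (log2 1.09, SE 0.29, adjusted p = 0.000622).

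The gene lists of subtelomeric families were mostly out of reach of the test on new RNA. Of 18 PAU genes 1 could be tested on T>C reads and 2 on total reads, and 14 had fewer than 100 reads in all libraries together. Both that were tested on total reads fell in RDY73 and 1 fell in RDY251, where 84.8% and 76.5% of all tested genes were lower, with medians of -2.25 and -1.55, a background that holds for the other lists too. Of 10 COS genes 2 could be tested on T>C reads and 5 on total reads. Among the 5, COS2 and COS3 share their last 60 coding bases, as do COS1 and COS6, and reads may be exchanged within each pair. All 5 fell on total reads in RDY73 and in RDY251. The medians of all 56 subtelomeric genes tested on total reads were -1.65 and -1.25 in these strains. The 8 Y′ helicase genes (YRF1) together had 45 reads in 48 libraries. Among 12 genes for sugar uptake and use 5 were tested on total reads, of which 1 fell in RDY73 and 1 in RDY251, with medians of -0.40 and -0.10. For iron and arsenic 5 of 5 were tested on total reads, of which 3 fell in RDY73 and 2 in RDY251. Both acid phosphatase genes fell on total reads in RDY73 and in RDY251. None of the 5 thiamine and pyridoxine genes was deep enough on either measure, and no flocculin gene lay within 15 kb. The silent locus HML had 166 reads, 159 of them assigned to HMLALPHA1, whose end is identical to that of MATALPHA1, in strains that are MATα.

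Genes that encode silencing factors were measured beside the subtelomeric genes. Of 14 tested (the Sir proteins, Rap1, Rif1, the Ku subunits, SAS and Orc1 among them), all 14 fell on T>C reads in RDY73, RDY251 and RDY249, 13 in RDY237, 12 in RDY247, 1 in RDY236 and 0 in RDY235 and RDY234. Among all tested genes the shares lower were 99.9% in RDY73, 99.1% in RDY251, 94.5% in RDY249, 90.4% in RDY237, 76.5% in RDY247 and 5.2% in RDY236. The median log2 change of the silencing factors was -6.21 in RDY73 and -3.87 in RDY251, against -5.57 and -3.48 for all tested genes. The part of these changes in the values of the subtelomeric genes was not tested.

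The subtelomeric genes too low for a test were summed. In RDY73 they had 11.4, 12.2 and 11.2 normalized T>C reads under IAA and 247, 219 and 269.8 under DMSO, a 21.2-fold difference (exact two-sided permutation p = 0.1, the smallest that 3 against 3 libraries allow). In RDY251 the sums were 11.4, 20.8 and 23.4 under IAA and 107, 109.7 and 167 under DMSO. With unmodified BDF1 they were 331, 334 and 302 under IAA and 347, 252 and 299 under DMSO in RDY234, and the groups overlapped. The log2 ratio of the sums was -4.40 in RDY73 and -2.79 in RDY251, against -3.96 and -2.23 for YML131W, ADH6 and YCR102C together and -4.67 and -3.0 for the other 21 tested genes. The sums of the low genes thus lay between those of the leading 3 and the other 21. The log2 ratio of all counted genes was -4.80 and -2.91.

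Summed by distance, the sum of the genes within 5 kb of an end had the largest fold difference. Most T>C reads of that sum came from its tested genes: RDS1, AIF1, YKL222C, AAD3 and IRC7, with 3687, 2833, 1822, 1320 and 869 in all 48 libraries. It thus describes few genes and not the outermost genes in general. Genes within 5 kb of an end had 6.66, 6.40 and 3.73 under IAA and 214, 265 and 259.8 under DMSO in RDY73, a 44.0-fold difference. The difference was 25.7-fold between 5 and 10 kb and 16.2-fold between 10 and 15 kb, or 20.7-fold there without YML131W, ADH6 and YCR102C (exact permutation p = 0.1 for each). In RDY251 the same sums differed 10.9-fold, 7.11-fold, 4.91-fold and 7.48-fold. The order did not hold in every subset: among untested genes alone, the RDY73 differences were 34.9-fold within 5 kb, on 9 reads under IAA, 44.2-fold from 5 to 10 kb, on 15 reads, and 11.0-fold from 10 to 15 kb. For single tested genes the medians of the 3 bands were -5.05, -5.28 and -5.21, which show no order. The difference between bands was not tested.

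The share of these genes among all T>C reads needs no spike-in. As a share, the 180 genes stood 1.61-fold higher under IAA than under DMSO in RDY73 and 1.47-fold higher in RDY251, and in both strains all 3 IAA libraries lay above all 3 DMSO libraries (exact permutation p = 0.1). The 3 leading genes alone stood 1.77-fold and 1.60-fold higher. Genes within 5 kb had a lower share under IAA, 0.624 times that under DMSO in RDY73 and 0.708 times in RDY251, again without overlap. Over all libraries RDS1, AIF1, YKL222C, AAD3 and IRC7 supplied most T>C reads of that sum. The share of the other 208 genes wholly within 30 kb was 1.54-fold higher in RDY73.

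The genes tested on T>C reads that lay nearest the 15 kb limit on either side are given as description, and untested genes were left out. Of these tested genes, YHR214C-C, RMD6 and COX14 lay just inside it, with far edges at 14638, 14665 and 14753 bases. Their log2 changes in RDY73 were -3.51, -5.49 and -5.72. Just outside lay the tested genes HYR1, PAU4 and YER186C, at 15052, 15230 and 15321 bases, with -5.96, -3.18 and -5.41.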

How the data were processed

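The authors trimmed reads with fastp (0.23.2), aligned them to the S. cerevisiae (R64) and S. pombe genomes and counted them per gene interval with SLAM-DUNK (0.4.3). The deposited values are raw counts per gene, of all reads and of reads with at least 2 T>C conversions, with replicates kept apart. Intervals reached 250 bases past the gene in 179 of the 180 subtelomeric genes. Counts were scaled by the median ratio over 4955 S. pombe genes and fitted with the quasi-likelihood test of edgeR (4.0.16, R 4.3.3), 1 fit of 48 libraries in 16 groups, without covariates, for genes with a mean count of at least 10. P-values were adjusted over all tested genes by Benjamini-Hochberg. The same test was run on simulated data of RDY234, IAA against DMSO, fitted to those libraries alone. Over 5118 genes it recovered 100 of 100 genes raised and 99 of 100 lowered 4-fold, with 3 false calls. All other genes were left unchanged there, so it does not cover strains in which most genes fell. Ratios of 5 or fewer reads carry exact 95% Poisson intervals, and these and the floor of 3 reads cover counting error only. Sums were compared by exact two-sided permutation tests. Alternatives were DESeq2 (1.42.0), other scalings, filters and distances, and leaving out single libraries. Named genes were the 10 tested members of highest T>C count under DMSO in RDY73 and RDY234, the up to 3 called members that rose or fell most in each comparison, and members of the lists by count, and the others were chosen after their values were seen (the genes beside the 15 kb limit and the library pattern at the right end of III). The members and lists were chosen with earlier results of these data known. The mitochondrial chromosome and 1 gene are not reported here.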

Additional observations from a re-analysis of the deposited data

Results flagged for a closer look

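The response to IAA differed from that in RDY234 by the interaction term of the fit (edgeR, adjusted over all tested genes, and at least 2-fold) for 24 of the 24 tested subtelomeric genes in RDY73, 23 in RDY251, 22 in RDY249, 15 in RDY237 and 12 in RDY247. Each of these responses was more negative than in RDY234. Among all tested genes the shares called more negative were 99.9%, 99%, 92.8%, 88.1% and 69.8%, in the same order of strains. No group had enough libraries for the check on single extreme values.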

How the results depend on the processing

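For single genes, 22 values turned direction under TMM scaling, 57 lost their call, 4 gained one and 82 kept both. With TMM in place of the S. pombe factors, the share of the 24 tested genes called on T>C reads, IAA against DMSO, was 25% in RDY73 (1 lowered, 5 raised), 16.7% in RDY251 and RDY237, 4.17% in RDY249 and 0% in RDY236 and RDY247, all of those in the variants raised. Against RDY234 under IAA it was 37.5% in RDY251, 25% in RDY237 and 12.5% in RDY247 and RDY249, and for the response to IAA 25% in RDY73, 0% in RDY237, RDY247 and RDY249 and 12.5% in RDY251. Against RDY73 under DMSO it was 12.5% in RDY236, 0% in RDY249 and 16.7% in RDY251. On total reads it was 21.4% in RDY251, 16.1% in RDY247, 14.3% in RDY249, 7.14% in RDY237 and 0% in RDY236. The log2 changes that turned positive under TMM were YCR102C 1.2, RDS1 0.46, ERO1 1.73, YML131W 1.77, ADH6 0.96, AIF1 0.24 and ARR2 2.33 in RDY73, YCR102C 1.28, RDS1 0.30, ERO1 0.80, YML131W 1.34, ADH6 0.80, AIF1 0.44 and ARR2 1.19 in RDY251, YCR102C 0.68, RDS1 0.11, COX14 0.12, ERO1 0.49, ADH6 0.66 and AIF1 0.31 in RDY249, ERO1 0.53 in RDY237 and COX14 0.028 in RDY247. TMM centres each library on its own S. cerevisiae genes.

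Other settings moved shares as follows. With the sum of S. pombe reads as the scale, 12.5% were called in RDY237 and 0% in RDY249 against RDY73 under DMSO, and 4.17% for the response in RDY236. With RDY234 in place of RDY73 under DMSO, 0% were called in RDY235, RDY236 and RDY237. With a mean count of at least 30, 8.33% were called in RDY236 against RDY234 and 0% in RDY249 under DMSO, and on total reads 2.78% in RDY235, 16.7% in RDY237 and 13.9% in RDY247. Within 10 kb, 30% were called in RDY247 on IAA against DMSO, 10% in RDY236 and 90% in RDY249 against RDY234, 30% in RDY234 and 40% in RDY235, RDY236 and RDY237 under DMSO, and 0% in RDY235 on total reads. Within 20 kb, 8% were called in RDY236 against RDY234, 2% in RDY247 under DMSO and 0.980% in RDY235 on total reads. Without genes over 1% multimapped, 10.5% were called in RDY235, 15.8% in RDY236 and 10.5% in RDY237 under DMSO. With genes unique throughout, a setting chosen after seeing the data, 12.5% were called in RDY236 on IAA against DMSO, 12.5% in RDY235 under DMSO and 3.03% in RDY235 on total reads.

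With no filter on low counts 139 genes were tested on T>C reads and 171 on total reads. The shares on IAA against DMSO were then 48.2% in RDY73, 35.3% in RDY251, 33.8% in RDY249, 24.5% in RDY247, 23.0% in RDY237, 10.1% in RDY236 and 0.719% in RDY235. Against RDY234 they were 1.44% in RDY236, 48.9% in RDY251, 36% in RDY237 and 28.1% in RDY247 and RDY249, and under DMSO 5.04% in RDY234, 7.19% in RDY235, 8.63% in RDY236, 6.47% in RDY237, 5.04% in RDY249 and 15.8% in RDY251. For the response they were 42.4% in RDY73, 32.4% in RDY251, 28.8% in RDY249, 21.6% in RDY237 and 17.3% in RDY247, and on total reads 42.7% in RDY73, 0.585% in RDY235, 4.09% in RDY236, 14.6% in RDY237, 12.3% in RDY247 and 24.6% in RDY251.

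Deviations of same-letter libraries correlated between -0.211 and 0.295. In RDY249 all 3 pairs were over 0.1 (0.257, 0.192 and 0.179), and there the share on IAA against DMSO was 87.5% with and without the letter as a replicate block. In the other 7 strains at least 1 pair was below 0.1, so the letters were not taken to pair the libraries there. With the letter as a replicate block 4.17% were called in RDY235 and 8.33% in RDY236 against RDY234, and 4.17% in RDY249 under DMSO, the same values as in fits of the compared groups alone. Leaving out 1 library gave 8.33% to 25% in RDY236 on IAA against DMSO, 0% to 4.17% in RDY236 against RDY234, 8.33% to 16.7% in RDY234, 12.5% to 20.8% in RDY235, 8.33% to 20.8% in RDY237 and 0% to 12.5% in RDY249 under DMSO, 0% to 4.17% for the response in RDY236, and on total reads 0% to 1.79% in RDY235, 3.57% to 10.7% in RDY236 and 16.1% to 33.9% in RDY237. For single genes DESeq2 kept direction and side of the threshold in 164 of its values and lost 1 call. Depth is a limit: 24 of 180 genes could be tested on T>C reads and 56 on total reads, and reads of near-identical copies may be exchanged.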
